A study of Mus musculus with 4 samples.

Results

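In RAW264.7 macrophages, 108 of the 25079 named mouse genes on the array gave a signal well above background in both cultures kept in plain medium and in neither culture given the plant polysaccharide AEPS. They were chosen by the scanner software's own mark for a signal well above background. A gene entered if the mark was set for at least 1 of its probes on both arrays of untreated cells, and if none of its probes carried the mark on an array of treated cells. Where a probe was printed as several spots, the majority decided. These 108 genes made up 0.719% of the 15029 named genes marked on both arrays of untreated cells. In all, 165 genes had a probe with this pattern, and 57 of them were left out because another of their probes was marked on an array of treated cells. Of the 108 genes, 13 had several probes, and for 0 of them was another probe marked on both arrays of untreated cells. Because the mark under AEPS chose the genes, their lower signal under AEPS is a description and was not tested.

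RAW264.7, obtained from ATCC, is a long-established line of mouse cells that resemble macrophages. All cells, controls included, carried a stably integrated pcDNA6.2-GW/EmGFP-miR vector, which expresses an artificial microRNA together with a green fluorescent protein. One set of cells carried a Scramble sequence and the other a sequence against the long intergenic RNA Linc-AAM. Both were blasticidin-selected bulk cultures, not single clones. Each line was kept for 4 h in DMEM, the culture medium, or in DMEM with 50 µg/mL AEPS, a polysaccharide of Actinidia eriantha roots. The 4 groups, Scramble in DMEM, Scramble with AEPS, Linc-AAM knockdown in DMEM and Linc-AAM knockdown with AEPS, held 1 array each, and nothing says that a culture was repeated.

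Plant and microbial polysaccharides can be sensed by pattern recognition receptors of macrophages, which switch on cytokine and chemokine genes within hours while other transcripts decline. On such an array each gene is read by short DNA probes that capture fluorescently labelled copies of its RNA. The brightness of a spot is its intensity, and the software compares it with the local background of the glass.

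All 4 arrays lay on 1 slide and were read in 1 scan, between 53.4% and 58.0% of their spots were well above background, and 0 spots were saturated. Of the 12 macrophage markers examined, 11 were well above background on every array, all but Mertk. Their summed intensity lay between 394264 and 549988. The defining markers Ms4a1 and Pax5 of B cells, Cd8a of T cells, Epcam and Cdh1 of epithelium and Cdh5 of endothelium were well above background on no array. Other markers were detected, on each array 3 of 7 of B cells, 4 or 5 of 7 of T cells, 2 to 4 of 7 of fibroblasts, 0 or 1 of 5 of epithelium, 3 of 5 of endothelium and 2 of 5 of neutrophils. The summed B cell intensity was 10690 in DMEM and 33666 under AEPS on the arrays labelled scramble, and 14610 and 34558 on those labelled knockdown, and its part in the results was not tested. No marker of any cell type was among the 108 genes. One discrepancy bears on the lines. Each column of the authors' deposited value table matched the scanner file of the other line given the same medium (Spearman correlation across probes 1, against 0.969 for the file with its own label). The arrays are therefore called "labelled scramble" and "labelled knockdown" after the scanner files. The treatment labels matched, so a difference between AEPS and DMEM present in both lines does not depend on which line is which. The knockdown itself was not checked, because no probe could be tied to Linc-AAM here.

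The 108 genes were dim before AEPS. Their median intensity in DMEM was 25.3 on the array labelled scramble (lowest 15.0, highest 177) and 23.1 on the array labelled knockdown (lowest 16.7, highest 165). The lowest signals that the software still marked as well above background were 14.2 and 16.7 on these arrays, and the medians over all named probes with the mark were 755 and 671. A probe's brightness also depends on its own sequence, so these values place the spots within the range of the array and do not rank transcripts. After scaling, 60 of the 108 genes lay within 2-fold of the lowest marked signal on both DMEM arrays. Under AEPS the median intensities were 12.2 and 11.8. Small differences near the edge of the mark therefore make up much of the group.

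**Figure D1:**
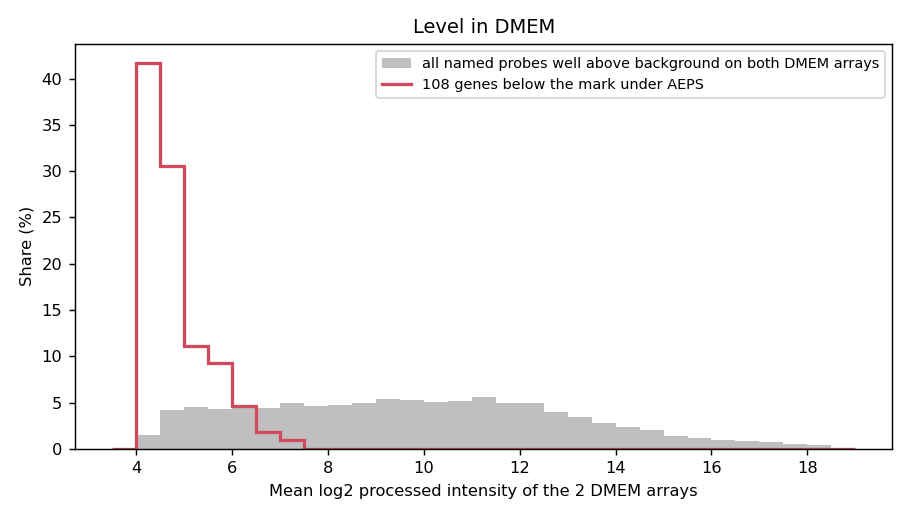
Share of genes (y axis, %) by mean log2 processed intensity of the 2 DMEM arrays (x axis, bins of 0.5). The red outline shows the 108 genes and the grey area all named probes well above background on both DMEM arrays; 45 of the 108 genes sit in the lowest filled bin, from 4 to 4.5, and 33 in the next.

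The data do not show that these genes were silenced. A second, weaker mark of the software, for a signal significantly above background, was still set for 93 of the 108 genes on the AEPS array labelled scramble, for 98 on the AEPS array labelled knockdown and for 91 on both. It was set on neither for 8. For 8 genes the AEPS signal was at the background itself on both AEPS arrays, so that the software wrote its substitute value, and Bhmt2, Hsf3, Csdc2, Dgkg, Nhsl1 and Apbb1 were among them. All others kept the weaker mark on at least 1 AEPS array. In bulk RNA, fewer cells that express a gene and less RNA per cell cannot be told apart.

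A signal under the mark gives only a bound. Intensities were put on a log2 scale and set relative to the 75th percentile of their array, and the DMEM value was compared with the AEPS value or with the lowest marked signal of the AEPS array, whichever was higher. A gene is then described as at least so many fold lower. Of the 107 genes with a value on the array labelled scramble in DMEM, 24 were at least 2-fold lower under AEPS on these arrays, where 5.22% of the 23549 genes examined were. On the arrays labelled knockdown it was 26 of the 108, beside 3.5% of 22352 genes. In both lines it was 15, beside 2.62% of 21922 genes. In these and later comparisons over all genes, array entries without a gene name, such as long intergenic RNAs, are counted too. The 108 hold named genes only. Since the mark chose the 108 genes, these shares do not bear on whether they stand apart. The bound reached 2-fold in 1 line for 20 genes and in neither for 73, and its median was 1.41-fold in the scramble-labelled and 1.45-fold in the knockdown-labelled pair. Taken at their measured values, 102 genes were lower under AEPS in both lines after scaling, and 5 were higher on the arrays labelled scramble, Epha1, Opn1mw, Cyp3a11 and 2 unnamed transcripts, of which Opn1mw was singled out after its values were seen.

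**Figure D2:**
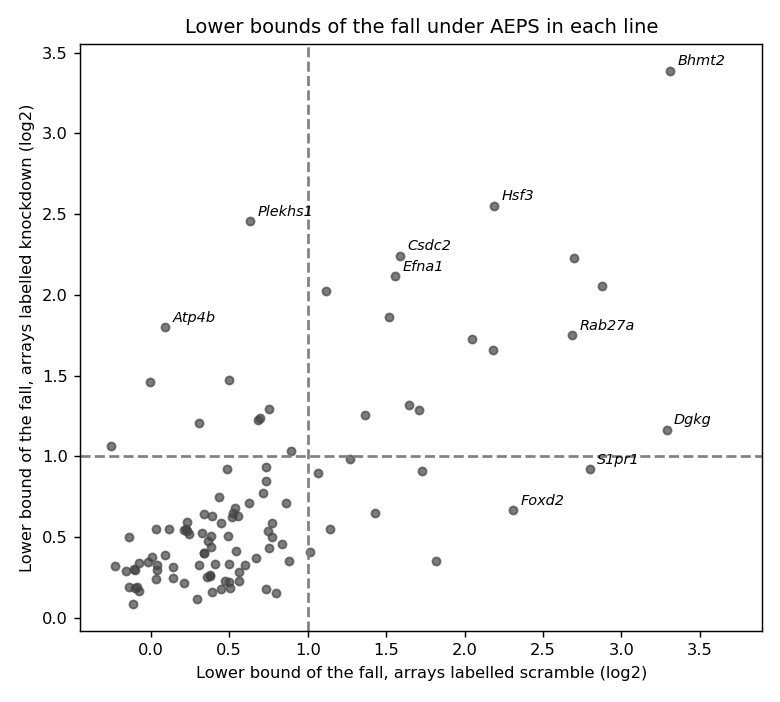
Lower bound of the decrease under AEPS (log2, so that 1 is 2-fold) in the scramble-labelled pair (x axis) and in the knockdown-labelled pair (y axis), 1 point a gene, for the 107 genes with both. The dashed lines mark 2-fold; 15 points lie beyond both, with Bhmt2 farthest at 3.31 and 3.39, while most points lie in the lower left.

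Among the 108 genes, Bhmt2 had the largest bound in each line. It encodes betaine-homocysteine methyltransferase 2, an enzyme that passes a methyl group from S-methylmethionine to homocysteine to form methionine. Its intensity was 177 in DMEM and 3.39 under AEPS on the arrays labelled scramble, and 165 and 3.21 on those labelled knockdown. Both AEPS values were at the background, and both DMEM values were well clear of it. This made Bhmt2 at least 9.93-fold lower under AEPS in the first pair and at least 10.5-fold lower in the second, and it was the 1 gene past 8-fold in both. Its probe lies at chr13:94426379-94426438 in mm9, the build of the array files. Among 38 genes of betaine, methionine and folate metabolism on the array, Bhmt2 was the 1 member (3.23% of the 31 marked on both DMEM arrays). Of the 31 list genes that could be compared, 1 was lower by 2-fold in both lines, Bhmt2 itself, and 1 was higher. The list's median difference between AEPS and DMEM was 0.03 and 0.22 (log2) in the 2 lines, against 0.06 and 0.06 for all genes tested.

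Promoters are shown for the genes at background on both AEPS arrays, at least 2-fold lower in both lines and present in the RefSeq table. These are Bhmt2, Hsf3 and Dgkg. The Bhmt2 promoter runs from 250 bases before to 50 after the start of the gene. It lies on the minus strand at chr13:93674253-93674552 (RefSeq, GRCm38.p6). Capitals mark GGGCGG, the core of the GC box to which Sp1-type factors bind, which occurs at 2 places.
Bhmt2: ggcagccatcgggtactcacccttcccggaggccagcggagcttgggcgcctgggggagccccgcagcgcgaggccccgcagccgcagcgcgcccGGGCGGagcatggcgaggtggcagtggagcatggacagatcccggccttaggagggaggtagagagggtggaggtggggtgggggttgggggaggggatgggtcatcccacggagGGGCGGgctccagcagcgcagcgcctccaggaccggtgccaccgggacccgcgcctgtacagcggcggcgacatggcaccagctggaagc
This window is rich in G and C (73.7%) and holds 26 CpG dinucleotides, against a median of 52.7% and 7 over all 32851 promoters of this length. It has no TATAAA.

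The other genes are described by what they do, beginning with factors that act on DNA or RNA. Hsf3, a heat shock transcription factor of mouse, read 81.5 in DMEM and 3.39 under AEPS on the arrays labelled scramble, and 92.5 and 3.21 on those labelled knockdown. As for Bhmt2, both AEPS spots were at the background, and Hsf3 was at least 4.57-fold and at least 5.86-fold lower. A second Hsf3 probe stayed between 3.22 and 3.84 on all 4 arrays, below the mark, so that the change rests on 1 of its probes, at chrX:93508398-93508457 in mm9.

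The Hsf3 promoter is shown by the same rule as that of Bhmt2. It lies on the minus strand at chrX:96367870-96368169 (RefSeq, GRCm38.p6). Capitals mark, in order, CCGGAAGT, a site type of ETS factors, CACGTG, the E-box of factors such as Myc and Usf, and CCAAT, the box of factor NF-Y.
Hsf3: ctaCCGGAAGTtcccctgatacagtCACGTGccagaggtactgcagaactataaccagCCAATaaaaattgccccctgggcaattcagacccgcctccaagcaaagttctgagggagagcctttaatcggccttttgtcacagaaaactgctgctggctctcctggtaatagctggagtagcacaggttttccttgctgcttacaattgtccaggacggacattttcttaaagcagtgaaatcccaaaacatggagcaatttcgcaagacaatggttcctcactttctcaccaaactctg
Here 47.7% of bases were G or C, and 6 CpG and 0 GGGCGG were found.

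Csdc2, a cold shock domain protein that binds RNA, read 53.7 in DMEM and 3.38 under AEPS on the arrays labelled scramble, and 74.7 and 3.22 on those labelled knockdown. It was at least 3.01-fold and at least 4.73-fold lower. Zfp69, a KRAB zinc finger protein, read 85.8 and 16.4, and 49.7 and 14.6. Its AEPS values were close to the mark in both lines, and the bounds were 4.54-fold and 3.15-fold. Zfp651, another zinc finger protein, read 43.0 and 3.23, and 31.3 and 7.08, which made it at least 2.41-fold and at least 1.98-fold lower. Foxd2, a forkhead factor of development, read 88.4 and 6.02 on the arrays labelled scramble, and 25 and 8.31 on those labelled knockdown. Its DMEM values differed between the lines, and so did its bounds of 4.96-fold and 1.59-fold. Gli1, the transcription factor that Hedgehog signalling induces, read 25 and 3.5, and 29.9 and 9.03. Both bounds stayed under 2-fold for Gli1, at 0.49 and 0.92 on the log2 scale.

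Over all named genes marked on both DMEM arrays, 0.719% were members. Over all genes compared, entries without a gene name included, 2.62% were lower and 4.01% higher by 2-fold in both lines. These shares are the background for the lists that follow. Of 449 C2H2 zinc finger genes on the array, 372 were marked on both DMEM arrays and 3 of these (0.807%) were members, the last being Zfp13 with bounds of -0.10 and 0.29 (log2). Of the 377 that could be compared, 12 were lower and 7 higher by 2-fold in both lines, with list medians of -0.09 and 0.02. Of 235 homeobox and developmental factors, 91 were marked in DMEM and 2 of these (2.20%) were members, Foxd2 and Gli1. Among the 100 of them compared, 3 were lower and 3 higher, with medians of -0.01 and 0.01. In the list of BMP, TGF-beta, Wnt, Notch and Hedgehog signalling, Gli1 was the 1 member of 74 genes (2.44% of the 41 marked in DMEM), 5 of the 43 compared were lower and 2 higher, and the medians were -0.13 and -0.03. None of the 69 macrophage lineage and signal-dependent transcription factors was a member (0), although 6 of the 55 compared were lower and 6 higher by 2-fold in both lines, with medians of -0.43 and -0.25.

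Brca1, which directs the repair of DNA breaks by homologous recombination, read 55.9 in DMEM and 14.2 under AEPS on the arrays labelled scramble, and 39.3 and 9.57 on those labelled knockdown. It was at least 3.13-fold and at least 2.49-fold lower. Npat, a coactivator of the histone genes in S phase, read 29.2 and 14.9, and 27.0 and 15.4, with bounds of 1.64-fold and 1.71-fold. The Npat values under AEPS stayed just under the mark. Of the 55 genes of DNA repair and Fanconi anaemia, 53 could be compared, and 12 (22.6%, beside 2.62% of all genes) were lower and 0 higher by 2-fold in both lines, with medians of -0.75 and -0.59, against 0.06 and 0.06 for all genes. Brca1 was the 1 member among them (1.89% of the 53 marked in DMEM). Of the 73 genes of DNA replication, cell cycle and checkpoint compared, 18 (24.7%) were lower and 2 higher, with medians of -0.73 and -0.69, and 0 were members.

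Among enzymes of lipid signalling, Dgkg stood beside Bhmt2 in the depth of its loss on the arrays labelled scramble. Dgkg encodes diacylglycerol kinase gamma, which turns diacylglycerol into phosphatidic acid. It read 174 in DMEM and 3.72 under AEPS on the arrays labelled scramble, and 35.4 and 3.52 on those labelled knockdown. Both AEPS spots were at the background, while the DMEM signal was much the lower on the array labelled knockdown. The bounds were accordingly 9.78-fold and 2.24-fold.

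The Dgkg promoter is shown by the same rule. It holds the E-box CACGTG and then the GC box core GGGCGG, again in capitals. It lies on the minus strand at chr16:22657182-22657481 (RefSeq, GRCm38.p6), with 65% G or C and 22 CpG.
Dgkg: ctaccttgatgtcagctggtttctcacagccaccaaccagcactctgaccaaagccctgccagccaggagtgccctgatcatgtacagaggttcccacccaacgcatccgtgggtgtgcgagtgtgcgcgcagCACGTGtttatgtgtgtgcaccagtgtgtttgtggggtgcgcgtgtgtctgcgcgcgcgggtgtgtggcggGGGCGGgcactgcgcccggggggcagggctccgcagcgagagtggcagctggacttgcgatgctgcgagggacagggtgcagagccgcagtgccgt
Over all members, 72 of the 108 genes matched the RefSeq table by symbol, with 89 promoters. On either strand, GGGCGG was found in 51.7% of these, in 9 of the 14 promoters (64.3%) of the genes at least 2-fold lower in both lines, and in 35.7% of all 32851 promoters. For CACGTG it was 6.74%, 4 of 14 (28.6%) and 7.15%. The shares for CCAAT were 37.1%, 35.7% and 37.4%, and for TATAAA 8.99%, 0% and 13.6%. The AP-1 motif TGACTCA was found in 7.87%, 7.14% and 5.20%, and neither of the NF-kappaB motifs searched was found in a member's promoter, against 0.155% and 0.0883% of all. The median GC content was 56.3% for members, 62.3% for the 14 and 52.7% overall. Several of the 14 belong to 1 gene, GGGCGG follows GC content, and the array's genes are not all genes, so these shares are a description.

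Pla2g4c, a cytosolic phospholipase A2 of the gamma type, read 37.4 and 9.67 on the arrays labelled scramble, and 29.4 and 11 on those labelled knockdown, with bounds of 2.09-fold and 1.86-fold. Acot1, which splits fatty acyl-CoA in the cytosol, read 25.2 and 3.28, and 43.8 and 14.7. Its bound reached 2-fold on the arrays labelled knockdown alone (0.50 and 1.47 on the log2 scale). Pnpla3, a lipid droplet enzyme, was near the mark throughout, at 18.3 and 13.4, and 23.8 and 16.6. It was the 1 member in a list of 78 genes of lipid and phosphoinositide metabolism (1.47% of the 68 marked in DMEM). That list does not hold Dgkg, Pla2g4c or Acot1. Of its 68 genes compared, 3 were lower and 5 higher by 2-fold in both lines, with medians of -0.25 and -0.15.

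Receptors and their ligands formed a further group. S1pr1, the G protein-coupled receptor for sphingosine 1-phosphate that guides lymphocyte egress and keeps endothelium tight, read 124 in DMEM and 3.99 under AEPS on the arrays labelled scramble, and 29.9 and 4.10 on those labelled knockdown. It was at least 6.95-fold lower in the first pair and at least 1.89-fold in the second. Gpr35, a G protein-coupled receptor of gut and immune cells, read 20.9 and 3.41, and 23.8 and 8.25. Its DMEM values lay so near the mark that the bounds were 0.23 and 0.59 (log2), and a second Gpr35 probe was marked on the scramble-labelled DMEM array alone, at 17.1. These were the 2 members among 68 receptors for chemoattractants, nucleotides, lipids and amines. They made up 5.26% of the 38 such receptors marked on both DMEM arrays, beside 0.719% over all named genes. Of the 45 compared, 2 were lower and 14 higher by 2-fold in both lines, beside 4.01% of 21922 genes that were higher, and the medians were 0.41 and 0.50. None of the 36 regulators of G protein signalling and cyclic nucleotides was a member (0). Among the 27 compared, 1 was lower and 2 higher, with medians of 0.06 and 0.02.

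Gpr180, a protein with 7 membrane spans, read 46.0 and 8.07, and 37.8 and 16.2, and was at least 2.58-fold and at least 2.38-fold lower. Efna1 encodes ephrin-A1, a membrane-bound ligand of Eph receptor kinases. It read 52.5 in DMEM and 5.58 under AEPS on the arrays labelled scramble, and 68.4 and 14.4 on those labelled knockdown. The bounds for Efna1 were 2.94-fold and 4.33-fold. The receptors Ephb4 and Epha1 were members too but hardly left the edge, Ephb4 with bounds of 0.38 and 0.26 and Epha1 with -0.07 and 0.16 (log2). These 3 genes were the members among 307 cell adhesion and leucine-rich repeat genes (2.36% of the 127 marked in DMEM). Of the 134 compared, 8 were lower and 8 higher by 2-fold in both lines, with medians of 0.08 and -0.01. Ankk1, a kinase with ankyrin repeats, read 51.2 and 9.07, and 57.5 and 10.9. It was at least 2.87-fold and at least 3.64-fold lower, in both lines alike. Apbb1, the Fe65 adaptor of the amyloid precursor protein, read 30.5 and 3.24, and 23.8 and 3.28, and although its AEPS spots were at background, the bounds were 1.71-fold and 1.5-fold, since its DMEM signal was low.

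Several genes of vesicle traffic and the cytoskeleton were in the group. Rab27a, a small GTPase that docks lysosome-related and secretory vesicles, read 116 in DMEM and 15.6 under AEPS on the arrays labelled scramble, and 53.1 and 9.89 on those labelled knockdown. It was at least 6.44-fold and at least 3.36-fold lower. Arhgap27, a GTPase activating protein, which the array lists as Sh3d20, read 73.7 and 12.6, and 52.3 and 14.6, with bounds of 4.13-fold and 3.31-fold. Other probes that the array lists as Arhgap27 read 50.9, 10.8, 34.6 and 17.9, and 186, 18.5, 166 and 20.1, in the order scramble-labelled DMEM and AEPS, then knockdown-labelled DMEM and AEPS. All 3 probes were lower under AEPS, but these 2 kept the mark on the AEPS array labelled knockdown. With probes joined under current symbols Arhgap27 would therefore not be a member and 107 genes would remain.

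Nhsl1, a relative of the Nance-Horan syndrome protein, read 59.2 and 3.72, and 29.7 and 3.54, with bounds of 3.32-fold and 1.88-fold. Nexn, the actin-binding protein nexilin, read 62.9 and 15.3, and 20.1 and 9.39. Its bounds were 1.82 in the scramble-labelled pair and 0.35 in the knockdown-labelled pair (log2). Of 254 kinesin, cilia and centrosome genes, 0 were members, while 7 of the 199 compared were lower and 1 was higher by 2-fold in both lines, with medians of -0.08 and -0.10.

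**Figure D3:**
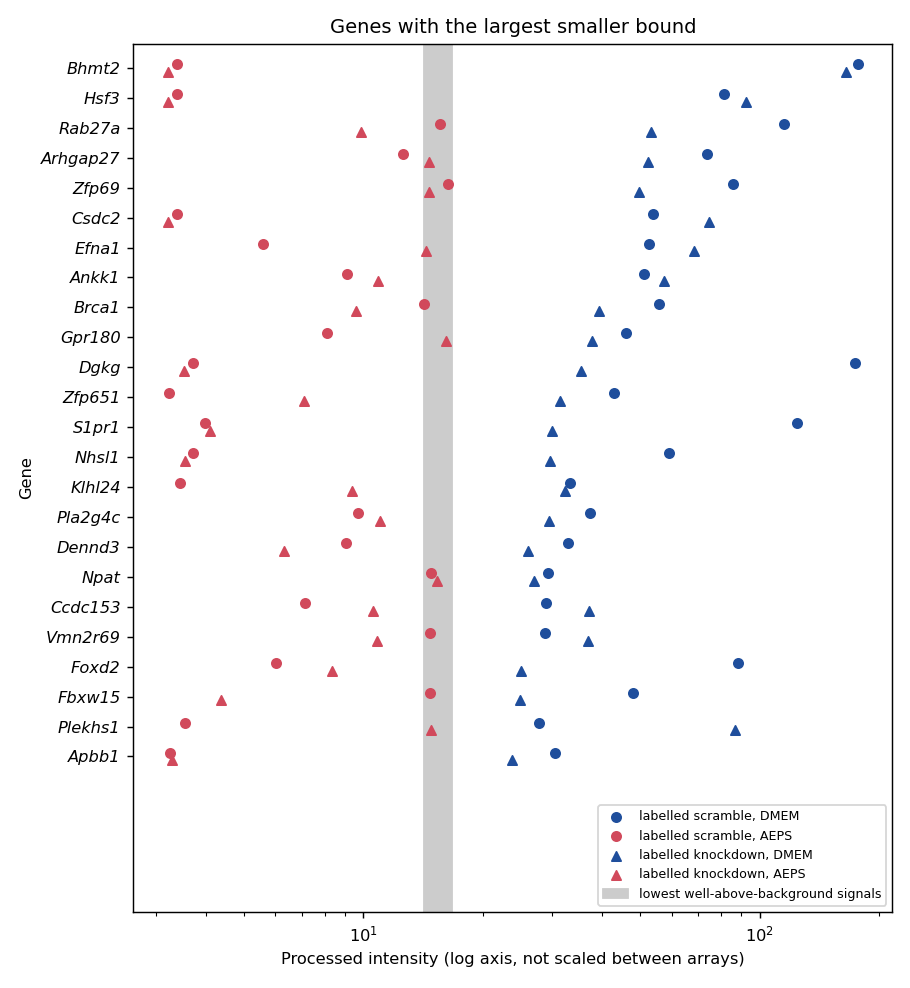
Processed intensity (x axis, log scale, not scaled between arrays) of 24 of the 25 named genes with the largest smaller bound, on each of the 4 arrays. Blue symbols are DMEM and red symbols AEPS, circles the arrays labelled scramble and triangles those labelled knockdown, and the grey band spans the lowest well-above-background signals of the 4 arrays (14.2 to 16.7); the blue symbols lie to the right of the band and the red ones in or left of it.

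Dennd3, which activates Rab12, was 1 of 2 genes read by 10 spots on each array, and so shows the error of a spot this dim. Its mean intensity was 32.9 ± 5.33 (SD over 10 spots) in DMEM and 10.9 ± 6.16 under AEPS on the arrays labelled scramble, and 25.1 ± 3.89 and 8.25 ± 4.53 on those labelled knockdown. The mark was set for 10 and 9 of the 10 spots in DMEM and for 1 of 10 under AEPS in each line. Fbxo32, the F-box protein atrogin-1 of muscle wasting, read 18.6 ± 5.47 and 10.5 ± 7.32, and 21.6 ± 5.21 and 10.6 ± 8.92. It carried the mark on 8 of 10 spots in DMEM and on 1 of 10 under AEPS in each line. Over all 10 spots, the ranges of mean ± SD overlapped between DMEM and AEPS in both lines for Fbxo32, and for Dennd3 they did not. The 10 spots include some flagged as outliers, which the values behind the bounds leave out. Without the flagged spots the AEPS means of Fbxo32 were 8.34 on the array labelled scramble and 7.81 on the array labelled knockdown. All are spots of the same RNA, and their SD holds no spread between cultures. On the log2 scale the SD for Dennd3 in DMEM was 0.23 and 0.24, against a median of 0.05 for all marked probes printed as 10 spots. Averaged over spots on the log2 scale, Dennd3 was at least 1.82-fold and at least 1.64-fold lower. The other 106 genes were read by a single spot, so that for them a spot's error was not measured.

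**Figure D4:**
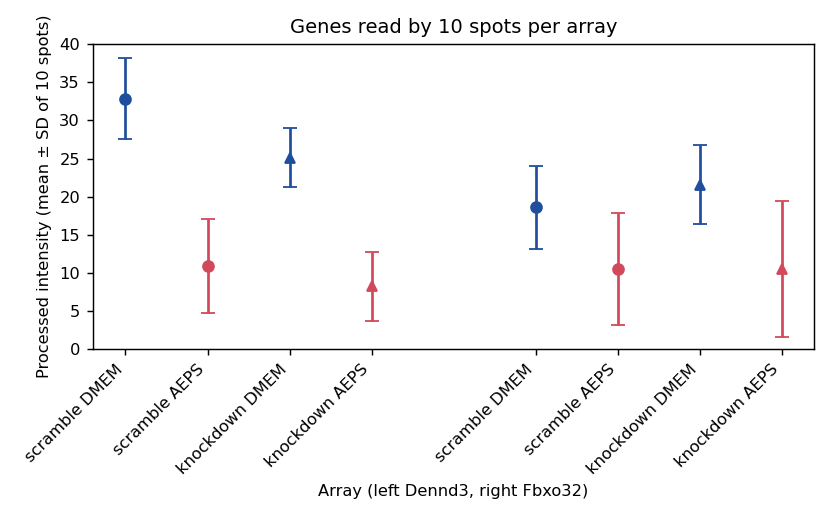
Processed intensity (y axis, mean ± SD of 10 spots of 1 array, flagged outlier spots included) of Dennd3 (left) and Fbxo32 (right) on each array (x axis). Blue is DMEM and red AEPS; the error bars are spot-to-spot SD within an array, clear of each other for Dennd3 and overlapping for Fbxo32.

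Other genes of protein breakdown had values in the same range as Dennd3. Klhl24, an adaptor of a cullin ubiquitin ligase, read 33.2 and 3.45, and 32.3 and 9.36, with bounds of 1.86-fold and 2.04-fold. Fbxw15, an F-box protein, read 48.0 and 14.7, and 24.8 and 4.38, with bounds of 2.69-fold and 1.57-fold. Each passed 2-fold in 1 line.

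Channel and transporter genes lay closer to the mark. Of 202 ion channel genes, 82 were marked on both DMEM arrays and 3 of these (3.66%) were members. Their bounds (log2) were 0.43 and 0.75 for Cacnb1 and 0.24 and 0.52 for Cacna2d4, both calcium channel subunits. For the chloride channel Ano1 they were 0.21 and 0.54. Among the 91 compared, 2 were lower and 2 higher by 2-fold in both lines, with medians of 0.11 and 0.08. Of 382 solute carriers, 238 were marked on both DMEM arrays and 3 of these (1.26%) were members. Bounds were 0.23 and 0.54 for the zinc transporter Slc30a3 and 0.56 and 0.22 for the sodium-proton exchanger Slc9a5. For the sulfate transporter Slc26a1 they were 0.39 and 0.16. Here 11 of 243 were lower and 16 higher, with medians of -0.01 and 0.04. All bounds of these 6 genes lay under 2-fold.

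Receptors of smell and pheromones, which macrophages are not known for, contributed 5 members out of 1416 genes. On both DMEM arrays 172 of these genes were marked, so that 2.91% of the 172 were members. On none of the 4 arrays were 1110 marked. Vmn2r69, a vomeronasal receptor, read 28.7 and 14.7, and 36.9 and 10.8, with bounds of 1.61-fold and 2.34-fold. Vmn2r113, Olfr961, Olfr1043 and Olfr898 had smaller bounds of 0.34, 0.26, 0.04 and -0.25 (log2) in their weaker line. Of the 209 compared, 1 was lower and 3 were higher by 2-fold in both lines, with medians of 0.23 and 0.13. Whether these probes read their own transcript at such intensities was not tested. Ccdc153, a coiled-coil protein, read 28.9 and 7.11, and 37.2 and 10.6, in the same range, with bounds of 1.62-fold and 2.36-fold.

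Of the 15 genes at least 2-fold lower in both lines, 11 carry an official gene symbol and are described above. The other 4, BB163080, Gm7854, 5830407E08Rik and DQ140166, were singled out after their values were seen. BB163080 read 116 and 10.4, and 73.8 and 8.82, and Gm7854 read 143 and 16.9, and 65.6 and 6.37. With Bhmt2 and Hsf3 they were the 4 transcripts at least 4-fold lower in both lines.

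The edge of the group can be seen from its nearest genes. Just inside lay Cyp3a11, a liver cytochrome P450, at 16.2 and 14.8, and 18.0 and 16.1. Skint5, of the family that selects skin T cells, read 16 and 6.98, and 19.3 and 5.97. Olfr898 read 15.0 and 6.58, and 33.0 and 12.7. Their smaller bounds were -0.14, -0.16 and -0.25 (log2), so that no decrease was measurable in 1 line. Just outside lay 144 genes with an official symbol that lost the mark in 1 line, 66 on the array labelled scramble and 78 on the array labelled knockdown. Only genes with no other probe marked on an AEPS array were counted here. The one with the largest bound was Lrrc17, a secreted leucine-rich repeat protein, which read 399 and 13.3 on the arrays labelled scramble, and 216 and 28.1 on those labelled knockdown. Acacb, the mitochondrial acetyl-CoA carboxylase, read 182 and 15.8, and 34.1 and 27.4, and the coiled-coil gene Ccdc69 read 165 and 16.4, and 80.1 and 25.8. Each of these 3 kept a marked spot on the AEPS array labelled knockdown and was left out for it. Official or not, 179 named genes had the opposite pattern, with the mark on both AEPS arrays and on no DMEM array.

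The size of the difference between the lines was not part of the rule, but the mark on both DMEM arrays was. The DMEM values compared here therefore also entered the choice of the genes. In DMEM every member had a marked signal, and 7 of the 107 with both values were at least 2-fold higher on the array labelled knockdown. Over the 20916 genes marked on both DMEM arrays, entries without a gene name included, it was 1.65%. At least 2-fold lower were 4, beside 1.15%. The shares among members were 6.48% and 3.70% of 108. With 1 array a group there is no test of these. Among 4666 genes in the same range of signal, 3.88% were higher and 1.41% lower. The median difference was 0.32 (log2) for members, 0.10 for the genes in the same range and -0.01 for all, and 78 of the 107 were higher on the array labelled knockdown. The lowest marked signal after scaling was also 0.66 higher on that DMEM array than on the other (-4.71 against -5.37), and its part in this shift was not tested. Under the line labels of the deposited value table, each of these differences takes the opposite sign.

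Plekhs1, a protein with a pleckstrin homology domain that the array lists as 9930023K05Rik, differed most. It read 27.7 in DMEM and 3.54 under AEPS on the arrays labelled scramble, and 86.6 and 14.8 on those labelled knockdown. It was thus the brighter on the knockdown-labelled array in both media. The difference in DMEM was 2.07, followed by Atp4b, the beta subunit of the gastric proton pump (1.95), Nyap1, an adaptor of phosphoinositide 3-kinase (1.71), Olfr898 (1.56) and Acot1 (1.22). At the other end stood Dgkg (-1.88), S1pr1 (-1.63), Foxd2 (-1.40), Nexn (-1.22) and Rab27a (-0.70). Atp4b read 19 and 55.0 in DMEM on the arrays labelled scramble and knockdown, and 13.5 and 15.3 under AEPS.

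**Figure D5:**
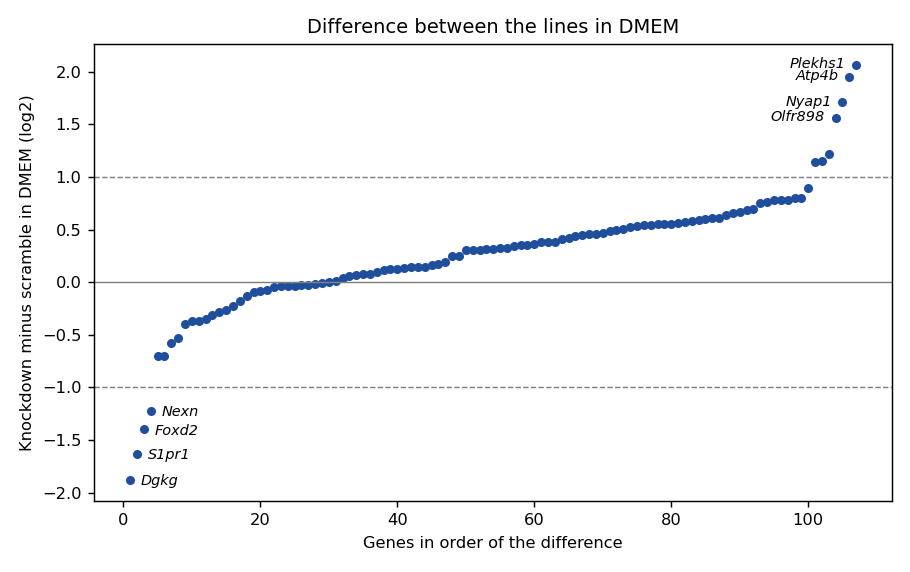
Difference in DMEM between the array labelled knockdown and the array labelled scramble (y axis, log2 of scaled intensity) for 107 genes in order of that difference (x axis). Dashed lines mark 2-fold; Dgkg, S1pr1, Foxd2 and Nexn lie below the lower one and 7 genes, led by Plekhs1 at 2.07, above the upper one.

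A limma fit over all 4 arrays, with the line and the medium as additive terms, tested the line difference. It covered 22359 genes, entries without a gene name included, and 107 of them were members. It called 1 member higher on the arrays labelled knockdown, Plekhs1, by 2.16 ± 0.12 (SE, log2; limma adjusted p = 0.0248), beside 0.398% of all genes tested. It called 0 members lower, beside 0.353%. At an unadjusted limma p under 0.05 there were 36 of the 107 members, beside 14.6% of all genes. The rule put the members' AEPS values below the mark, so these shares do not bear on whether members stand apart. The next member was Olfr898, at 1.35 ± 0.16 (limma adjusted p = 0.0833), and Acot1 stood at 1.78 ± 0.31 (limma adjusted p = 0.147). Dgkg, with the largest difference the other way in DMEM, stood at -0.89 ± 0.52 (limma adjusted p = 0.521). The fit has 1 residual degree of freedom, which is the difference in AEPS response between the lines and holds no spread between cultures. Each member entered it through its 2 DMEM arrays, and its AEPS values are below the mark, so the sizes and errors above rest in part on signals that are only bounds. For Plekhs1 the scramble-labelled AEPS value is the software's substitute for a signal at background. Leaving in genes marked on fewer than 2 arrays gave Plekhs1 a limma adjusted p of 0.176, and correcting the background by normexp gave it an effect of 0.78 (limma adjusted p = 0.0638), so the call did not hold in these 2 fits.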

How the data were processed

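Total RNA was labelled with Cy3 and hybridised to Agilent SurePrint G3 mouse arrays, per the labels' protocols. The authors deposited 1 scanner file per array, made with Agilent Feature Extraction 10.7.1.1 per the file headers, whose processed signal is an intensity on a linear scale, already corrected for background. They also deposited a table of log2 values, used here as an alternative and to check labels; how it was normalized is not stated there.

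Here control spots were left out, each array's 75th percentile was subtracted on the log2 scale, and spots of a probe were averaged. Outlier spots were left out of these averages, but not of the marks or of the means and SDs over 10 spots. The 75th percentiles were 587.7, 509.7, 439.1 and 448.3 (scramble-labelled DMEM and AEPS, then knockdown-labelled DMEM and AEPS). In the main comparison of AEPS with DMEM, a fold against a signal below the mark was computed only as a bound. Measured values entered the count of genes lower or higher after scaling, the list medians, the setting without a floor and the limma fit. One gene, 9330159N05Rik, had only an outlier spot in scramble-labelled DMEM, and so has no bound there and left the fit. The line difference was tested with limma 3.58.1 in R 4.3.3 (lmFit and eBayes, Benjamini-Hochberg over all genes, threshold 0.05) on genes well above background on at least 2 arrays, and the script was tested on simulated data. With 1 array a group, no p-value was given for other comparisons. The error in the limma p-values comes from the difference in AEPS response between the lines, moderated over all genes. It holds no spread between repeated cultures, and the number of arrays, 4, limits the precision.

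Symbols were updated through RefSeq accessions for 85 members and by symbol for 10, and 13 kept the design's name. Probe positions are those of the files (mm9), and promoters come from RefSeq's table for GRCm38.p6. No mm9 annotation was used, so exons and UTRs are not named. Motifs were searched on both strands, among them TGACGTCA, GAGGAAGT, TTTGGCGC, TTTCGCGC and the motifs of NRF1 and of interferon-stimulated response elements, found in 1, 3, 2, 1, 0 and 1 of the 89 member promoters. Named genes were the 25 official symbols with the largest smaller bound, up to 4 members per list, the 3 just inside and just outside the edge, and the 5 largest and smallest line differences. Some items are not reported here. Members and lists were chosen with earlier results of these data known. The alternatives were another mark or rule for spots and probes, normexp with an offset of 50, quantile normalization, another percentile, no floor, the value table, no filter and an intensity trend.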

Additional observations from a re-analysis of the deposited data

How the results depend on the processing

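No analysis paired by replicate number was possible, because each group holds 1 array and the groups share only the replicate number 1. The limma fit compares the media within lines and the lines within media through its additive terms, and no replicate number enters it. The number of genes was 165 when a gene's other probes did not remove it, and between 106 and 140 with the weaker mark, with all spots required, with outlier spots left out or with current symbols (the last chosen after seeing the data). The 140 genes came from the weaker mark and were largely others. At most 8 of the 108 can be among them, since only for 8 was that mark set on neither AEPS array. Normexp background correction, which adds an offset of 50 and so shrinks dim signals, left 5 genes at least 2-fold lower on the arrays labelled scramble, 3 on those labelled knockdown and 1 in both, with median bounds of 0.063 and 0.19 (log2), and 1 gene higher and 0 lower by 2-fold between the lines in DMEM. Without the floor on the AEPS side, 52, 58 and 43 genes passed 2-fold, with medians of 0.98 and 1.23. Quantile normalization gave medians of 0.66 and 0.59 and a line median in DMEM of 0.23, and the percentile over probes marked on all arrays a knockdown-labelled median of 0.60. All 15 genes at least 2-fold lower in both lines remained so without the floor, under quantile normalization and with the other percentile. Under normexp only Bhmt2 did, at 1.61 and 1.76. The other marks and probe rules change which genes are in the group, and are not part of this statement. The deposited value table, with its own line labels, reversed the line median in DMEM to -0.23, with 7 genes lower by 2-fold. The line fit called 0 members higher without the filter and 2 with an intensity trend (Plekhs1 and Acot1), and the 1 it called with normexp was Acot1, with Plekhs1 at 0.78; without the filter the effect of Plekhs1 stayed 2.16. It called 0 members lower in each of the 5 fits. The causes of these shifts, beyond the offset, were not tested. What limits all of this is signal over background: 106 genes rest on 1 spot an array, and each group on 1 array.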

Other observations

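The probes of 13 of the 108 genes lay on chromosome 9 (12%), where 5.24% of the named probes well above background on both DMEM arrays lay, and 11 lay on chromosome 5 (10.2%, beside 6.17%). Rab27a, Ankk1, Zfp651, Npat, Ccdc153 and Fbxw15 are among those on chromosome 9. The place of the genes on the chromosomes was seen in the data and not tested.

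Of the 25079 named genes, 230 had the mark on both scramble-labelled arrays and on no array labelled knockdown, and 39 the other way round. The scramble-labelled arrays carried the mark on more spots in general, 58.0% in DMEM and 56.1% under AEPS, against 53.4% and 54.8%. The part of this in the counts was not tested. Under the line labels of the deposited value table, the counts change places.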
